A study of Homo sapiens with 18 samples.

Results

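RNA of ATG12-/- HEK293T cells was compared with RNA of wild-type HEK293T cells, 3 libraries against 3, out of 18 libraries in the series. HEK293T is an established line from human embryonic kidney that carries the SV40 large T antigen. The libraries were taken by their labels, which give the genotype, the term large RNA, and whether it came from cells or extracellular vesicles (EVs). No size limit is given there. The ATG12-/- cells were 1 clone, named D9, and the ATG7-/- cells used beside them were 1 clone, named F2, so that an effect of the genotype and an effect of the clone cannot be told apart. ATG12-/- EVs and wild-type EVs (3 libraries each) are used at the end. Every group, the wild-type one included, had spent 24 h without serum after growth in DMEM with fetal bovine serum. The labels number the libraries of a group as biological replicates and do not say that they came from separate cultures, so p-values measure the spread between these libraries, which may be technical.

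ATG12 is a ubiquitin-like protein. ATG7, the activating enzyme shared by both conjugation reactions of autophagy, and ATG10 attach it to ATG5, and the ATG12–ATG5 conjugate with ATG16L1 then directs the transfer of LC3 and GABARAP proteins to the lipid of growing autophagosomes. Without it this lipidation fails, while the upstream initiation complexes remain. Withdrawal of serum is a common way to raise autophagy in cultured cells, and autophagosomes end in lysosomes, where their load is degraded.

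The deposited values were TPM, the share of each transcript in a library after scaling for its length, and they were summed here to 57865 genes. ATG12-/- cell libraries held an estimated 624707 to 1269784 reads on annotated transcripts, and wild-type ones 483075 to 1097190, with wild-type replicate 1 the shallowest. Across genes, which are not independent replicates, log2 values had correlations of 0.791 to 0.83 within ATG12-/- cells, 0.757 to 0.809 within wild-type cells and 0.711 to 0.804 between them. Of 16 genes associated with HEK293 cells, 10 averaged at least 1 TPM, and their sum was 175 to 216 TPM in ATG12-/- cells and 196 to 212 TPM in wild-type cells. Of 10 fibroblast markers 3 reached that level, with sums of 9.69 to 19.7 TPM in ATG12-/- cells and 15.9 to 26 TPM in wild-type cells, and COL3A1, FAP and POSTN were listed at 0 in all 6 libraries. Of 12 immune cell markers 5 did, with sums of 26.2 to 37.0 TPM in ATG12-/- cells and 25 to 35.2 TPM in wild-type cells, and CD14, CD3D, CD3E, HBB and MS4A1 were listed at 0.

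The level of a gene in these files carries a limit of strand. The library kit keeps the strand of the RNA, and the strand setting of the quantification is not given in the sources used here. GAPDH, a glycolytic enzyme with one of the most abundant mRNAs of human cells, had 84.0 to 136 TPM in ATG12-/- cells and 56.1 to 70.0 TPM in wild-type cells. AC006064.4, whose annotated transcript lies wholly opposite GAPDH exons, had 3920.1 to 4305 TPM in ATG12-/- cells and 2938 to 3169 TPM in wild-type cells. Of 298 noncoding features with a mean of at least 50 TPM and at least 50% of their main transcript opposite protein-coding exons, 294 were listed above the coding gene, with a median ratio of 18.3. Whether a value named for a gene counts reads of its own strand, of the other strand or stray reads was not tested, and this applies to every gene below. The difference between genotypes is therefore given, where such a pair was found, for the named gene and for the feature opposite to it.

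The targeted gene was examined first. ATG12 (chromosome 5, 115828200 to 115841858, minus strand, GENCODE 29 on GRCh38, as for all coordinates here) had 6.71, 9.18 and 5.18 TPM in ATG12-/- cells and 10.1, 7.61 and 13.5 TPM in wild-type cells. The groups overlap, because ATG12-/- replicate 2 lies above wild-type replicate 2. The log2 fold change was -0.48 (SE 0.38, limma adjusted p = 0.597), on an estimated 6.5 to 30.6 reads per ATG12-/- library and 13.8 to 25.4 per wild-type library. How the clone was edited is not in the labels, and a frameshift can leave mRNA in place, so these values do not check the genotype. ATG7 had 14.9, 13.1 and 17.1 TPM in ATG12-/- cells and 8.14, 11.1 and 13.1 TPM in wild-type cells, where ATG12-/- replicate 2 lay just under wild-type replicate 3.

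Differences were tested on a pair of scales. On the deposited scale, log2(TPM + 1), limma called a gene where its Benjamini-Hochberg adjusted p was under 0.05. Of 22471 genes 30 were called in ATG12-/- cells (0.134% of those tested), 11 of them higher (0.049%) and 19 lower (0.0846%), while 3360 had an unadjusted p under 0.05 and the median log2 fold change was -0.07. In a simulation of this comparison that fit recovered 6 of 100 genes changed 2-fold and 73 of 100 changed 4-fold, and called 16 genes that had not been changed. A second fit, added after the data were seen, used the reads estimated to lie behind the TPM values. It tested 13663 genes with at least 10 reads in at least 3 cell libraries and called 2256 (16.5%), 1270 of them higher (9.3%) and 986 lower (7.22%), with a median of -0.03. In simulation the reads fit recovered 69 of 100 genes changed 2-fold and 100 of 100 changed 4-fold, and called 6 unchanged genes. The simulated reads had an assumed spread that was not estimated from these libraries. Only well-covered genes were changed, equally up and down, and no RNA class was shifted. These recoveries therefore do not give the error of the calls in the real data. Below, a fold change "by reads" comes from this second fit, limma-voom with p-values adjusted over all 13663 genes, and TPM fold changes come from the first. Without wild-type replicate 3 the reads fit called 1299 genes, and without ATG12-/- replicate 2 it called 1347. On the TPM scale 10.7% of the genes tested had every ATG12-/- library above every wild-type one, 13.0% had every one below, and 23.6% had either, so a lack of overlap alone is common.

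Of the genes called on both scales, HDGF, DHX9, HYOU1 and PFKFB2 are protein-coding genes with a role known in human cells, and all were higher in ATG12-/- cells. HDGF, a nuclear growth factor that binds chromatin through a PWWP domain (on the minus strand of chromosome 1, at 156742107 to 156766925), had 150.1, 167 and 171 TPM in ATG12-/- cells and 58.1, 51.9 and 46.4 TPM in wild-type cells. Every ATG12-/- library was above every wild-type library, by a wide margin, and replicates of a group lay close together. The log2 fold change was 1.66 on the TPM scale (SE 0.20, adjusted p = 0.0265) and 1.65 by reads (SE 0.13, adjusted p = 3.83e-09). DHX9, an RNA helicase that unwinds RNA duplexes and R-loops (on the plus strand of chromosome 1, at 182839369 to 182887751), had 94.2, 100.2 and 115 TPM in ATG12-/- cells and 36.7, 36.2 and 29 TPM in wild-type cells. Again no library of one group reached the other. Its log2 fold change was 1.61 by TPM (SE 0.19, adjusted p = 0.0222) and 1.54 by reads (SE 0.14, adjusted p = 4.92e-08).

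HYOU1, a chaperone of the endoplasmic reticulum (ER) that acts as a nucleotide exchange factor of HSPA5 (on the minus strand of chromosome 11, at 119044189 to 119057202), had 174, 200.2 and 241 TPM in ATG12-/- cells and 80.3, 81.7 and 68.2 TPM in wild-type cells. Its spread was wider among ATG12-/- libraries than among wild-type ones, without overlap. The log2 fold change was 1.43 by TPM (SE 0.19, adjusted p = 0.0483) and 1.42 by reads (SE 0.13, adjusted p = 4.92e-08). PFKFB2, which makes and breaks down fructose-2,6-bisphosphate, an activator of glycolysis (on the plus strand of chromosome 1, at 207034366 to 207081024), had 331, 316 and 287 TPM in ATG12-/- cells and 151, 143 and 137 TPM in wild-type cells. The groups lay far apart. Its log2 fold change was 1.14 by TPM (SE 0.15, adjusted p = 0.0483) and 1.12 by reads (SE 0.14, adjusted p = 5.67e-06). Its main transcript of 551 nt, which held 93.04% of the PFKFB2 signal, lies 57.17% opposite exons of YOD1, so reads of YOD1 may be among these.

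A read-through transcript and a noncoding feature were also called on both scales. STAG3L5P-PVRIG2P-PILRB, a read-through noncoding transcript on chromosome 7, had 162, 165 and 206 TPM in ATG12-/- cells and 71.0, 62.2 and 65.3 TPM in wild-type cells. All ATG12-/- libraries lay above all wild-type libraries (log2 fold change 1.44, SE 0.19, adjusted p = 0.0461; 1.41 by reads, SE 0.17, adjusted p = 4.18e-06). AC125611.3, chosen after its values were seen, lies 97.94% opposite TUBA1C, an alpha-tubulin gene. It had 957, 1006 and 956 TPM in ATG12-/- cells and 463, 483 and 470.4 TPM in wild-type cells, with no overlap (log2 fold change 1.07, SE 0.14, adjusted p = 0.0483). On the TPM scale each of these 6 genes lost its call when any 1 of the 6 libraries was left out, with adjusted p up to 0.21. By reads each kept its call without any 1 library, with adjusted p no higher than 0.000165 (PFKFB2).

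**Figure D1:**
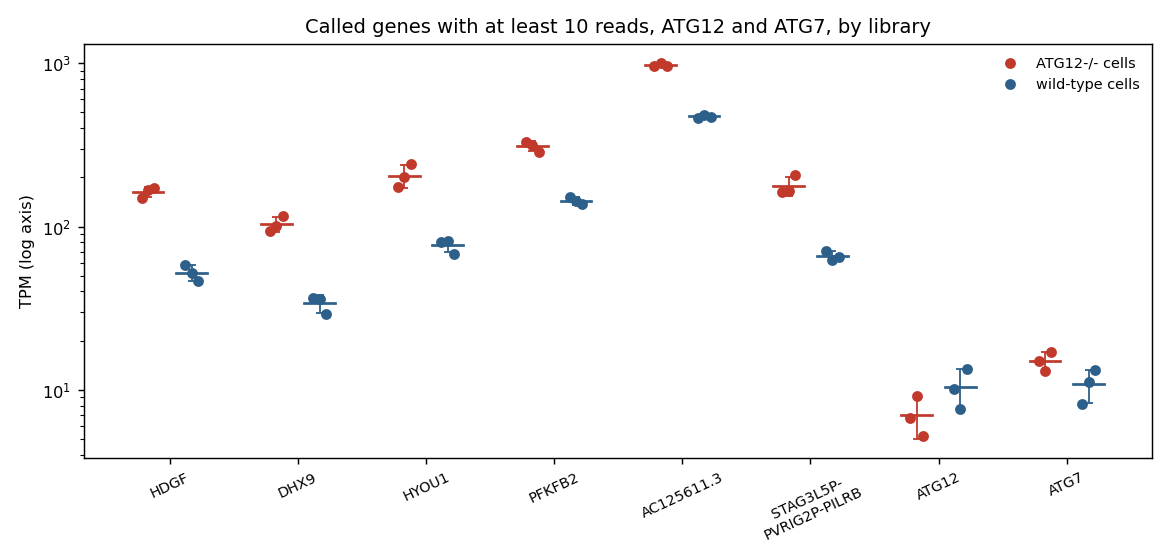
Deposited TPM (log axis) of genes called on the TPM scale, and of ATG12 and ATG7, with 1 point per library, ATG12-/- cells left of wild-type cells, and bars for each group's mean and SD. HDGF, DHX9, HYOU1 and PFKFB2 have no overlap between the groups, with ATG12-/- libraries from 94.2 to 331 TPM and wild-type ones from 29 to 151 TPM.

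Of the genes called by TPM 23 were too sparse for the reads fit. They comprise 4 higher and 19 lower genes, with 1.0 to 10.7 reads per library in the group where they were seen and main transcripts of 104 to 927 nt. Of all 30 called genes 22 were listed at 0 throughout one group, and 14 have a clone-style or pseudogene name. MIR215, the precursor locus of the microRNAs miR-215-5p and miR-215-3p (on the minus strand of chromosome 1, at 220117853 to 220117962), was listed at 0 in every ATG12-/- cell library, whereas wild-type cells had 150.3, 120.3 and 164 TPM. Those TPM rest on 1, 2 and 2 reads, because a feature of 110 nt turns a single read into a large TPM value. Of these 6 libraries the wild-type ones alone hold it, and a fitted difference against a group at 0 depends on the pseudocount. The mature sequences, from RefSeq on GRCh38.p14, are shown because MIR215 has the smallest adjusted p of the comparison (1.18e-05), with the seed, bases 2 to 8, in capitals.
hsa-miR-215-5p: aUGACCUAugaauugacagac
hsa-miR-215-3p: uCUGUCAUuucuuuaggccaaua
The 21 nt of miR-215-5p (chr1:220117916-220117936) and the 23 nt of miR-215-3p (chr1:220117877-220117899) lie on the minus strand. The libraries are labelled large RNA and were read for 50 nt, more than the length of either mature form. Whether the reads came from mature microRNAs was not tested.

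SFXN4, a mitochondrial protein linked to complex I and iron-sulfur clusters, had 8.84, 7.99 and 4.57 TPM in ATG12-/- cells but 0 in all 3 wild-type libraries. Only 2, 3 and 3 reads stood behind these values. The H/ACA RNA SNORA49 was listed at 0 in ATG12-/- cells and had 128, 51.1 and 69.8 TPM in wild-type cells, 1 read in each library. The U6 pseudogene copies RNU6-1154P and RNU6-445P showed the same picture of 1 read in each wild-type library. RN7SKP158, a 7SK-like sequence, was listed at 0 in ATG12-/- cells and had 9.26, 11.1 and 15.2 TPM in wild-type cells, from 1 to 3 reads. RF00019, an annotated Y RNA family member, was seen only in ATG12-/- cells, at 66.9, 57.2 and 115 TPM and 1 read each. The TPM fit thus called these features on 1 to 3 reads per library. Copies of U6 and 7SK also share sequence with their parents, so their values are uncertain.

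**Figure D2:**
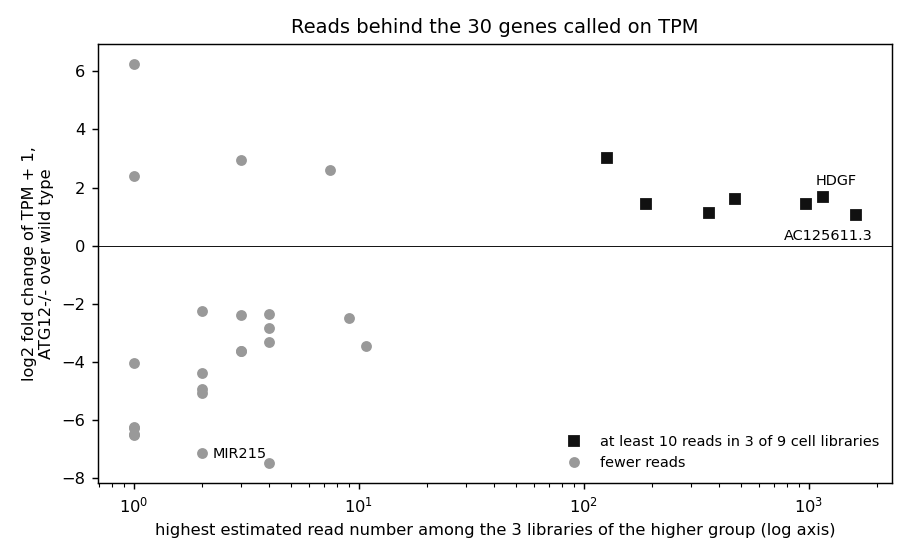
For each gene called on the TPM scale, the highest estimated read number among the 3 libraries of its higher group (horizontal, log axis) against its log2 fold change of TPM + 1, ATG12-/- over wild type (vertical), with black squares for genes tested by reads and grey circles for the rest. The 23 genes not tested by reads sit at 10.7 reads or fewer, and HDGF, DHX9, PFKFB2 and AC125611.3 lie at 361 reads or more.

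Among protein-coding genes averaging 20 TPM or more, the 5 higher genes just short of the TPM threshold (adjusted p 0.0587 to 0.0705) were called by reads. MARCKSL1, a membrane protein that binds calmodulin and actin, had 169, 209 and 246 TPM in ATG12-/- cells and 77.3, 79.4 and 85.2 TPM in wild-type cells. The lowest ATG12-/- library was above the highest wild-type one (TPM adjusted p = 0.0587; 1.34 by reads, SE 0.13, adjusted p = 1.86e-07). PHF23, a PHD-finger protein that binds methylated histone H3, had 129, 123 and 129 TPM in ATG12-/- cells and 44.0, 43.2 and 57.7 TPM in wild-type cells (1.41 by reads, SE 0.18, adjusted p = 4.56e-06). AUP1, a protein of lipid droplets and of ER-associated degradation, averaged 36.0 ± 4.20 TPM in ATG12-/- cells and 13.3 ± 1.60 TPM in wild-type cells (SD, n = 3 each; 1.16 by reads, adjusted p = 0.00344). C9orf43 and AC091959.3, whose functions are not given here, rose by 1.28 and 1.26 by reads.

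The lower genes of this rank did not pass by TPM (adjusted p 0.0722 to 0.129) and all 10 passed by reads. SLC38A6, an amino acid transporter of the SLC38 family, had 27.9, 26.6 and 17.3 TPM in ATG12-/- cells and 74.1, 73.6 and 74.5 TPM in wild-type cells. Wild-type libraries were nearly level and far above all ATG12-/- libraries (-1.49 by reads, SE 0.23, adjusted p = 5.92e-05). NEDD4, a HECT ubiquitin ligase, had 969.5, 875 and 837 TPM in ATG12-/- cells and 1892, 1315 and 1642 TPM in wild-type cells. The highest ATG12-/- library lay below the lowest wild-type one (-0.78 by reads, SE 0.14, adjusted p = 0.00033). VPS13B, a lipid transfer protein of the Golgi, had 148, 139 and 118 TPM in ATG12-/- cells and 271, 267 and 267 TPM in wild-type cells, without overlap (-0.87 by reads, SE 0.14, adjusted p = 0.000134).

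The SUMO protease gene SENP7 fell by 1.02 and the gene of the mitochondrial NAD synthase NMNAT3 fell by 0.80, both by reads. CEACAM1, a cell adhesion molecule, fell by 1.39 by reads, on 7.74, 3.87 and 5.28 TPM in ATG12-/- cells and 74.9, 21.3 and 33.6 TPM in wild-type cells, where wild-type replicate 1 stood well above the others. FSIP2, a protein of the sperm tail sheath, fell by 0.76, and GIMAP2, a GTPase known from lymphocytes, fell by 0.77. NPIPB4 (-1.40 by reads) belongs to a family of near-identical copies on chromosome 16, so its reads may be split among them. All 10 lower genes and the 5 higher ones kept their calls by reads without any 1 library.

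**Figure D3:**
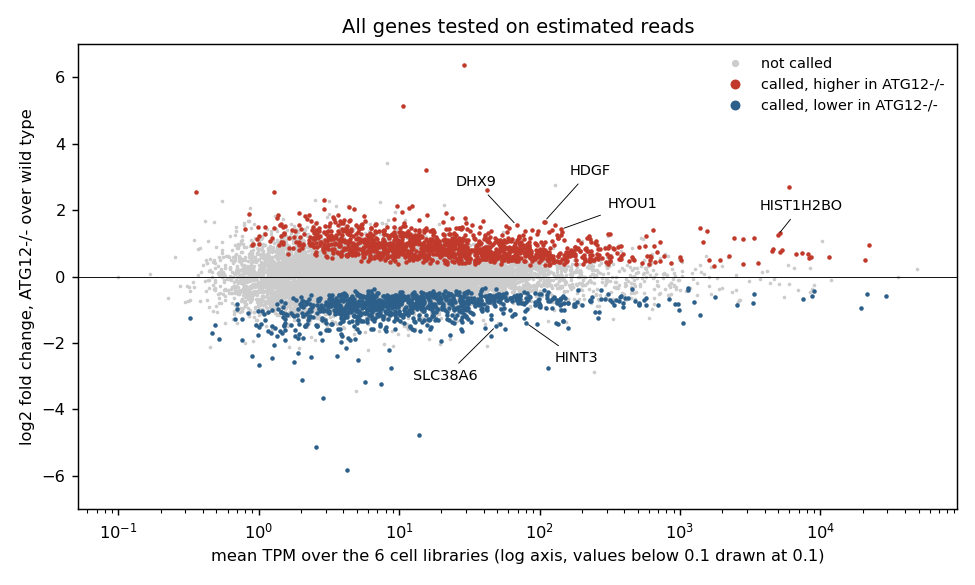
Mean TPM over the 6 cell libraries (horizontal, log axis) against the log2 fold change by reads, ATG12-/- minus wild-type cells (vertical), for the 13663 genes tested by reads, with called genes coloured. The 1270 genes called higher and 986 called lower lie on both sides of a median of -0.03, and HDGF (1.65), DHX9 (1.54) and HINT3 (-1.39) stand at the edges of their levels.

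Genes of the ER folding machinery formed the first list. The proteins of this list fold, bridge and quality-check secreted and membrane proteins, and the unfolded protein response raises many of them. Of 22 members tested by reads 7 were called higher and 1 lower, with a median log2 fold change of 0.41, against 9.3% higher, 7.22% lower and a median of -0.03 over all genes tested. On the TPM scale HYOU1, PFKFB2, DHX9, HDGF and SFXN4 were the only members of any list called. Beside HYOU1, the lectin chaperone CANX had 285, 332 and 374 TPM in ATG12-/- cells and 119.5, 187 and 216 TPM in wild-type cells. Every ATG12-/- library was above every wild-type one (1.07 by reads, SE 0.14, adjusted p = 9.45e-06). CALR, the soluble partner of CANX, averaged 137 ± 31.1 TPM in ATG12-/- cells and 83.0 ± 8.98 TPM in wild-type cells (0.66 by reads, adjusted p = 0.00704). The protein disulfide isomerase P4HB averaged 61.9 ± 9.61 TPM in ATG12-/- cells and 32.6 ± 7.39 TPM in wild-type cells (0.70 by reads, adjusted p = 0.0114).

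HSPA5, the central ER chaperone BiP, had 5.35, 5.05 and 7.02 TPM in ATG12-/- cells and 2.75, 4.37 and 2.78 TPM in wild-type cells, low values for a gene known to be abundant (0.70 by reads, SE 0.25, adjusted p = 0.0487). Its call held without wild-type replicate 2 and was lost without each other library. PDIA3, a disulfide isomerase that works with CANX and CALR, was called higher by reads (0.73, adjusted p = 0.0229) while its TPM were 5.30, 5.60 and 4.80 in ATG12-/- cells and 10.1, 22.8 and 5.89 in wild-type cells, a TPM fold change of -0.94 that was not called. PDIA3 lost its reads call without ATG12-/- replicate 2 or wild-type replicate 2 or 3, CALR without ATG12-/- replicate 2, and P4HB without ATG12-/- replicate 2 or wild-type replicate 3. DNAJC10, a reductase of the ER, was the member called lower (-0.38, adjusted p = 0.0388), a call kept only without wild-type replicate 2. HYOU1 and CANX kept their calls without any 1 library. The count of 7 depends on single libraries, since 2 members were called higher without ATG12-/- replicate 2 and 3 without wild-type replicate 3. The features opposite 3 of these genes moved likewise or less: AC145207.3, opposite P4HB, had 0.53 (adjusted p = 0.0139, lost without wild-type replicate 1), AP003392.3, opposite HYOU1, had 0.64 (adjusted p = 0.0474, lost without each library but ATG12-/- replicate 1), and AC092069.1, opposite CALR, had 0.52 (adjusted p = 0.0633).

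The ER stress response element, the letters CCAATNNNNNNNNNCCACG on either strand, is known to bind NF-Y and ATF6. It was found in 9 of the 34 promoter windows of this list (26.5%) and in 27 of all 35116 windows (0.0769%), where a window is the 300 bases from 250 before to 50 after a RefSeq start site. Windows are not genes, since CANX has overlapping windows that hold the same match. Many members of the list are known targets of the unfolded protein response, so this share says nothing about the genotypes. Of 6 members called higher with a promoter in the table, HSPA5, CALR and CANX held it. Among 15 members not called higher, HSP90B1, PDIA6, CRELD2 and ERO1B held it as well. The motif contains CCAAT, which alone is in 34.6% of all windows. The HSPA5 promoter (chr9:125241294-125241593, minus strand) and the CALR promoter (chr19:12938359-12938658, plus strand) are given from RefSeq on GRCh38.p14, 5′ to 3′ on the strand of the gene, to show 2 of the 3 matches among called members, with the match in capitals. In CALR the match reads on the other strand.
HSPA5 promoter: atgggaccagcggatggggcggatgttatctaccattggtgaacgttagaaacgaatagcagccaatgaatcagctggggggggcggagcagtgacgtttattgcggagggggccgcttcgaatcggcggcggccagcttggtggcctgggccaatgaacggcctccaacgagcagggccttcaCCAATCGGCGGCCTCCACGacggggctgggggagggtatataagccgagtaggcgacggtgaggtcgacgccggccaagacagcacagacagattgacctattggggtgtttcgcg
CALR promoter: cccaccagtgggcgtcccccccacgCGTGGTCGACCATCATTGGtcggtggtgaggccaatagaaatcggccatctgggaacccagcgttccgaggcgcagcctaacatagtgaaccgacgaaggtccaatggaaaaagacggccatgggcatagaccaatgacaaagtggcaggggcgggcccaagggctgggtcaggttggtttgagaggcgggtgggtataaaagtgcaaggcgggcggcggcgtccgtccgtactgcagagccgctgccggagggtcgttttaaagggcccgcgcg
A match describes the sequence and says nothing about binding in these cells.

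The translocon and N-glycosylation genes, which insert and modify proteins at the ER, had 8 of 24 members called higher by reads and none lower (median 0.50). RPN2, a ribophorin of the oligosaccharyltransferase, rose by 1.22 (SE 0.27, adjusted p = 0.00293) and kept its call without any 1 library. SEC23B, a coat protein of ER exit vesicles, rose by 1.09 (adjusted p = 0.00873) and lost its call without wild-type replicate 2 or 3. Without wild-type replicate 3 the list had 2 members higher and without ATG12-/- replicate 2 it had 5. SEC24C, the partner coat protein, chosen after its values were seen, rose by 1.32 (SE 0.18, adjusted p = 1.19e-05), and AC022400.8, 79.61% opposite it, by 1.09 (SE 0.13, adjusted p = 1.8e-06).

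Among 13 regulators of the unfolded protein response 3 were called higher and none lower (median 0.36), and 1 without wild-type replicate 3. PPP1R15B, a subunit of the phosphatase that reverses eIF2α phosphorylation, had 5.60, 7.56 and 7.17 TPM in ATG12-/- cells and 3.44, 3.42 and 2.35 TPM in wild-type cells, without overlap (1.14 by reads, SE 0.21, adjusted p = 0.00054). ATF6B and CREB3, membrane-bound transcription factors, had 0.59 and 0.87 by reads. ATF6B lost its call without ATG12-/- replicate 3 or wild-type replicate 3, and CREB3 without ATG12-/- replicate 1 or 2 or wild-type replicate 1 or 3. Of 29 genes of the ATF4 response to amino acid shortage, 11 were called higher and none lower (median 0.46), with 6 higher without ATG12-/- replicate 2 or without wild-type replicate 3, and 1 lower without ATG12-/- replicate 1 or wild-type replicate 2 or 3. SLC7A5, the large neutral amino acid transporter, rose by 1.33 by reads (SE 0.21, adjusted p = 9.17e-05), while AC126696.2, whose main transcript lies 51.92% opposite SLC7A5 exons, had 0.39 (SE 0.29, adjusted p = 0.369) and was not called. CBS, which makes cystathionine from homocysteine, rose by 0.83 (SE 0.18, adjusted p = 0.00169). EPRS, a transfer RNA synthetase, rose by 0.96. ATF3, a transcription factor of the same response, had -1.13 by reads and was not called (adjusted p = 0.0718).

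Chaperones driven by the heat shock factor HSF1, most of them cytosolic, had 5 of 16 members called higher and 1 lower (median 0.47). Again 5 were higher without each single library, and none was lower without ATG12-/- replicate 1 or 2 or wild-type replicate 2 or 3. HSPA8, the constitutive HSP70, had 79.1, 109 and 151 TPM in ATG12-/- cells and 56.3, 39.6 and 33.9 TPM in wild-type cells. The wild-type libraries all lay under the ATG12-/- ones (1.36 by reads, SE 0.22, adjusted p = 0.000115). HSP90AB1, the constitutive HSP90, had 33.5, 35.4 and 40.8 TPM in ATG12-/- cells and 15.1, 21.7 and 15.3 TPM in wild-type cells (1.04 by reads, SE 0.16, adjusted p = 5.21e-05). HSP90AA1, its inducible relative, rose by 0.85 by reads. The inducible HSP70 genes HSPA1B (1.75, called higher) and HSPA1A (called lower) are near-identical copies, and HSPA1A was listed at 0 in ATG12-/- cells with 0, 11.4 and 13.9 TPM in wild-type cells, so their separate values are uncertain.

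The heat shock element, searched as GAANNTTCNNGAA on both strands, was in 6 of 27 windows of this list (22.2%) and in 172 of all windows (0.49%). The list was made of chaperones driven by HSF1, so this share says nothing about the genotypes. HSPA8, HSP90AA1 and HSP90AB1 held it among 4 called members with a promoter, and HSPD1 and CHORDC1 among 11 not called higher. HSPD1 and CHORDC1 also hold more than a single match each. The HSP90AB1 promoter (chr6:44247693-44247992, plus strand) and the HSPA8 promoter (chr11:123062087-123062386, minus strand) are printed as called members with 2 matches each, in capitals.
HSP90AB1 promoter: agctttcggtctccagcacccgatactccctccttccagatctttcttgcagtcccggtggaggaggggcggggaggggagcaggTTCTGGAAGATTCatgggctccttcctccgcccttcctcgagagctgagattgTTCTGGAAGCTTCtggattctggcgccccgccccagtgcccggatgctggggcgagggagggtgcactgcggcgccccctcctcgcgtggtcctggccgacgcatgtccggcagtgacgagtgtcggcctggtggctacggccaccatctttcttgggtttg
HSPA8 promoter: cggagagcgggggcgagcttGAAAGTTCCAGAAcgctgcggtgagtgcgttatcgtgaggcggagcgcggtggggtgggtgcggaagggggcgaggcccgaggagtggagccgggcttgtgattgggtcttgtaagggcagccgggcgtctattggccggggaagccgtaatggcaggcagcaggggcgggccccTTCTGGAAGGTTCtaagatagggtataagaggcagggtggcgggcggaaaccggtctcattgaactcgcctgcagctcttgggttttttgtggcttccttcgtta

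**Figure D4:**
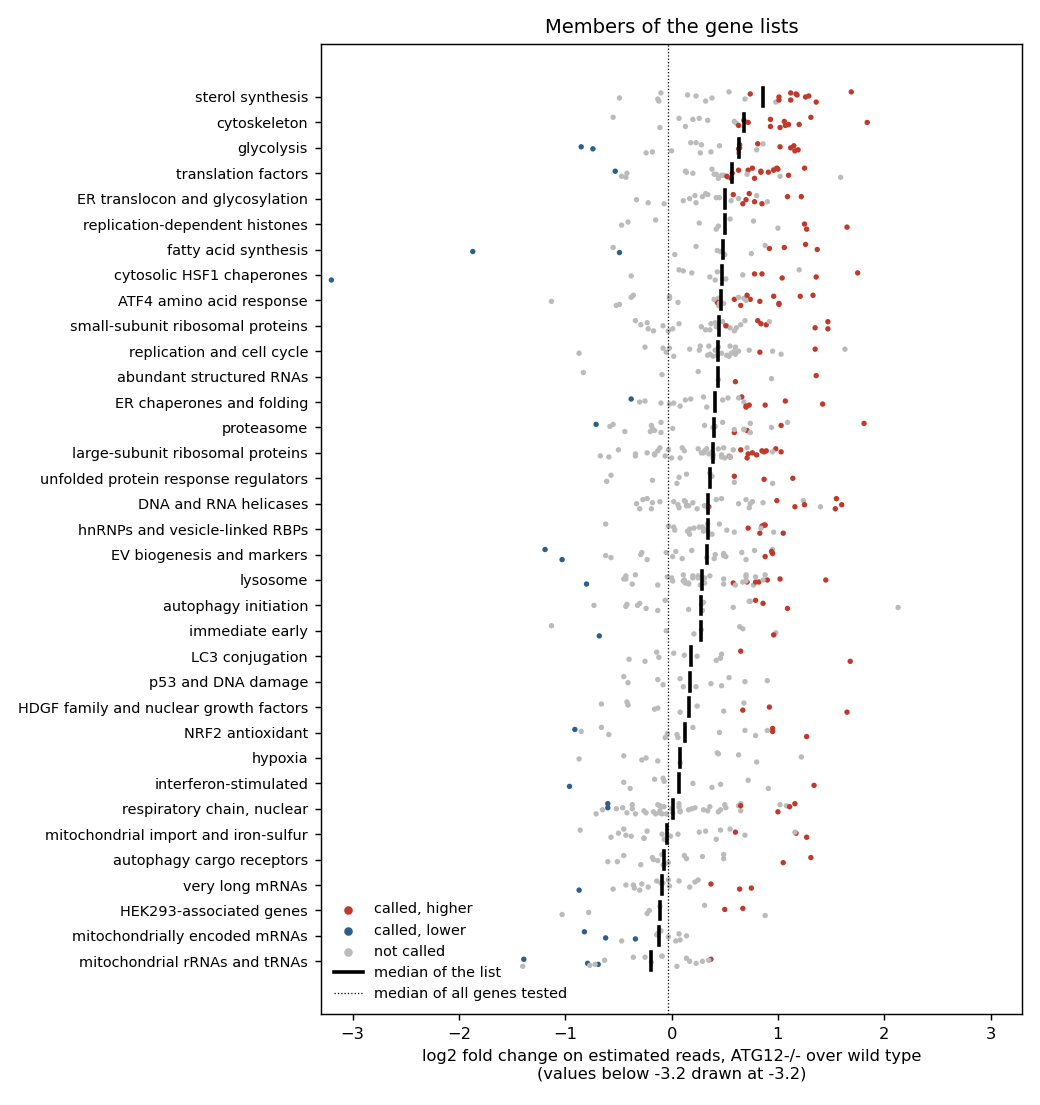
Log2 fold changes by reads, ATG12-/- minus wild-type cells, of the tested members of each gene list, 1 point per gene with called members coloured, a bar at the list's median and a line at the median of all genes, -0.03. The lists of sterol synthesis (0.86), cytoskeleton (0.68) and glycolysis (0.63) have the highest medians among those named here.

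Sterol synthesis had the highest median of the lists described (0.86), with 11 of 22 members called higher and none lower. The pathway turns acetyl-CoA into cholesterol, and its genes are raised by SREBP2 when sterol is short. SQLE, squalene epoxidase, had 46.4, 48.0 and 47.7 TPM in ATG12-/- cells and 16.3, 21.6 and 26.4 TPM in wild-type cells. The ATG12-/- libraries were nearly level and well above all wild-type libraries (1.12 by reads, SE 0.14, adjusted p = 5.81e-06). INSIG1, the ER anchor that holds SREBP back and is itself an SREBP target, had 20.01, 19.2 and 22.8 TPM in ATG12-/- cells and 5.40, 7.06 and 7.47 TPM in wild-type cells (1.26 by reads, SE 0.25, adjusted p = 0.000902). SC5D, the C5 desaturase, had 46.4, 72.3 and 89.0 TPM in ATG12-/- cells and 15.2, 5.71 and 8.21 TPM in wild-type cells (1.69 by reads, SE 0.29, adjusted p = 0.000233). In both genes the groups were apart.

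Other members span the route. FDFT1, squalene synthase, rose by 1.12 by reads, LSS, lanosterol synthase, by 1.01, and LBR, a C14 reductase of the inner nuclear membrane, by 1.17. SQLE, INSIG1, SC5D, FDFT1, LSS and LBR kept their calls without any 1 library, and 8 to 11 members of the list were called higher in those fits. In fatty acid synthesis 4 of 14 members were called higher and 2 lower (median 0.48), with none lower without ATG12-/- replicate 1 and 1 lower without any other single library. ACLY, which makes cytosolic acetyl-CoA from citrate, had 45.3, 61.0 and 62.7 TPM in ATG12-/- cells and 24.7, 33.6 and 24.2 TPM in wild-type cells, without overlap (1.06 by reads, SE 0.15, adjusted p = 1.19e-05). AC125257.2, wholly opposite ACLY, rose by 0.96 (SE 0.14, adjusted p = 1.78e-05). SCD, the main stearoyl-CoA desaturase, rose by 0.92 and FASN, fatty acid synthase, by 1.26. FASN had 43.9, 37.1 and 315 TPM in ATG12-/- cells and 20.1, 16 and 23.3 TPM in wild-type cells, with ATG12-/- replicate 3 far above the others. MLXIPL, a glucose-responsive transcription factor of lipogenesis, was called lower (-1.87), and not without ATG12-/- replicate 1. SCD5, another stearoyl-CoA desaturase, was called lower (-0.49, adjusted p = 0.0488) and lost its call in each fit without 1 library.

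The cytoskeleton list had 12 of 21 members called higher and none lower (median 0.68), with 9 to 12 higher without 1 library. It holds actins, tubulins and their partners. ACTB, beta-actin, had 299, 314 and 372 TPM in ATG12-/- cells and 189, 172 and 148 TPM in wild-type cells. All ATG12-/- libraries exceeded all wild-type ones (1.02 by reads, SE 0.15, adjusted p = 2.61e-05). PFN1, profilin, which charges actin monomers with ATP, had 54.6, 53.6 and 64.6 TPM in ATG12-/- cells and 23.2, 26 and 21.8 TPM in wild-type cells (1.20 by reads, SE 0.18, adjusted p = 3.05e-05). TUBA1C had 162, 157 and 170.4 TPM in ATG12-/- cells and 90.1, 79.0 and 75.8 TPM in wild-type cells. Replicates were tight in both groups, and its fold change of 1.06 by reads (SE 0.14) stood beside 1.04 (SE 0.11) for AC125611.3 opposite to it. TUBA1B, another alpha-tubulin, rose by 1.31 (SE 0.16), and AC011603.2, wholly opposite TUBA1B, by 0.77 (SE 0.10), at 5746, 5856 and 5279 TPM in ATG12-/- cells and 3325, 3336 and 3493 TPM in wild-type cells. Tubulin genes share long stretches of sequence, so reads can be split among them.

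Glycolysis had 9 of 23 members called higher and 2 lower (median 0.63), with 7 to 9 higher without 1 library, and none lower without any 1 library but wild-type replicate 1. HK1, the hexokinase of most tissues, had 14.9, 16.9 and 17.8 TPM in ATG12-/- cells and 7.68, 8.31 and 7.07 TPM in wild-type cells. Its groups did not overlap (1.15 by reads, SE 0.17, adjusted p = 4.62e-05). ENO1, enolase, averaged 99.0 ± 21.8 TPM in ATG12-/- cells and 43.5 ± 3.69 TPM in wild-type cells (1.19 by reads), and PKM, pyruvate kinase, 126 ± 32.1 TPM in ATG12-/- cells and 61.2 ± 14.3 TPM in wild-type cells (1.02 by reads). LDHA, lactate dehydrogenase, rose by 1.16 by reads although its TPM overlapped, at 2973, 2360.3 and 2629.8 in ATG12-/- cells and 1483, 3165 and 2023 in wild-type cells. GAPDH rose by 0.63 by reads (adjusted p = 0.0119), and AC006064.4 opposite to it by 0.42 (adjusted p = 0.00678). GAPDH was not called without ATG12-/- replicate 3 or wild-type replicate 3, and AC006064.4 not without ATG12-/- replicate 2. Of 11 hypoxia genes tested by reads, a list that shares targets with glycolysis, limma-voom called 0 and 5 had an unadjusted p under 0.05. By TPM limma called 0 of 13 and 1 had an unadjusted p under 0.05.

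Translation factors had 15 of 33 members called higher and 1 lower (median 0.57), with 11 to 15 higher without 1 library, and none lower without ATG12-/- replicate 2 or 3 or wild-type replicate 1 or 3. EIF4G1, the scaffold of the cap-binding complex, had 201, 186 and 204 TPM in ATG12-/- cells and 78.2, 102 and 122 TPM in wild-type cells, without overlap (1.10 by reads, SE 0.15, adjusted p = 8.29e-06). EIF4G2, a scaffold that acts without the cap, had 178, 328 and 196 TPM in ATG12-/- cells and 35.5, 61.3 and 45.9 TPM in wild-type cells (1.25 by reads, SE 0.22, adjusted p = 0.00033). EEF2, the translocation factor, averaged 5912 ± 649 TPM in ATG12-/- cells and 3281 ± 747 TPM in wild-type cells and rose by 0.84 by reads. Of 47 large-subunit ribosomal protein genes 11 were called higher and none lower (median 0.39), with 5 higher without ATG12-/- replicate 3 or without wild-type replicate 3, and 1 lower without wild-type replicate 2. Of 30 small-subunit genes 7 were called higher and none lower (median 0.45), but 13 without ATG12-/- replicate 1 and 4 without wild-type replicate 3. RPS14 had 151, 138 and 226 TPM in ATG12-/- cells and 66.2, 64.4 and 50.1 TPM in wild-type cells, all ATG12-/- libraries being higher (1.35 by reads, SE 0.19, adjusted p = 1.57e-05). RPL4 rose by 0.85 and RPS4X by 0.89, both also without any 1 library. Ribosomal protein genes have many processed pseudogenes, so their reads may be split.

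RNA-binding proteins followed. Of 35 helicases 7 were called higher and none lower (median 0.34). Beside DHX9, the nucleolar helicase DDX21 had 3.92, 3.63 and 4.22 TPM in ATG12-/- cells and 0.640, 1.90 and 0.954 TPM in wild-type cells, without overlap (1.60 by reads, SE 0.32, adjusted p = 0.00111), and DDX54 rose by 1.25. Of 27 hnRNPs and related RNA-binding proteins 6 were called higher and none lower (median 0.34). HNRNPL, a splicing regulator, averaged 73.3 ± 16.9 TPM in ATG12-/- cells and 39.2 ± 0.322 TPM in wild-type cells (0.85 by reads, adjusted p = 0.00522), and LARP1, which binds the mRNAs of ribosomal proteins, rose by 1.05 by reads. In a list of 12 tested genes, HDGF, its relatives and other nuclear proteins, 3 were called higher and none lower (median 0.16). HDGF itself is 1 of them, and NPM1, nucleophosmin, is another (0.67 by reads, adjusted p = 0.0011). The HDGF relatives HDGFL2 (-0.41), HDGFL3 (-0.16) and PSIP1 (-0.42) were not called by reads.

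Genes of autophagy were taken in 3 lists, beside 9.3% called higher and 7.22% called lower by reads over all genes tested. Of 12 genes of LC3 conjugation tested by reads, ATG7 and ATG4A were called higher and none lower (median 0.18), and 1 without ATG12-/- replicate 1 or 3 or wild-type replicate 2 or 3. ATG7 rose by 0.65 (SE 0.17, adjusted p = 0.00818) and kept its call by reads without any 1 library, though not called by TPM (0.49, adjusted p = 0.437). ATG4A, a protease that primes LC3 relatives, had 5.15, 3.34 and 9.89 TPM in ATG12-/- cells and 0.844, 2.19 and 1.15 TPM in wild-type cells, and its call (1.68, adjusted p = 0.0237) was lost without each of these same libraries. GABARAP averaged 52.9 ± 14 TPM in ATG12-/- cells and 28.4 ± 6.85 TPM in wild-type cells and was not called (0.42 by reads, adjusted p = 0.278). Among 19 initiation genes 3 were called higher and none lower (median 0.28), with 1 lower without ATG12-/- replicate 1 or wild-type replicate 2. WDR45, a WIPI protein that binds the forming membrane, had 215, 313 and 276 TPM in ATG12-/- cells and 112, 93.5 and 123 TPM in wild-type cells. Its groups lay far apart (0.86 by reads, SE 0.19, adjusted p = 0.00212). ATG9A, the lipid scramblase of autophagy, had 1.09 by reads (adjusted p = 0.0128) and lost its call without wild-type replicate 3, as the list then had 1. Among 18 cargo receptors 2 were called higher (median -0.07), a share near that of all genes, and 1 without ATG12-/- replicate 3 or wild-type replicate 1 or 3. RTN3, a receptor for ER tubules, rose by 1.31 (SE 0.25, adjusted p = 0.000649). CALCOCO2, the receptor NDP52 of damaged bacteria-containing vacuoles and mitochondria, averaged 54.9 ± 7.27 TPM in ATG12-/- cells and 94.2 ± 17.3 TPM in wild-type cells, without overlap, and was not called (-0.51 by reads, adjusted p = 0.0519).

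Of 42 lysosomal genes 7 were called higher and 1 lower (median 0.29), with 4 higher without wild-type replicate 3, and none lower without ATG12-/- replicate 1 or 2 or wild-type replicate 1 or 2. CLCN7, the chloride exchanger of the lysosomal membrane, had 43.3, 40.7 and 43.1 TPM in ATG12-/- cells and 30.8, 18.1 and 17.9 TPM in wild-type cells. The ATG12-/- libraries were nearly level and above all wild-type ones (0.79 by reads, SE 0.18, adjusted p = 0.00308), while AL031600.3, wholly opposite CLCN7, had 0.12 (adjusted p = 0.744). PSAP, the saposin precursor, rose by 0.90, also without any 1 library. CTSA, a protective carboxypeptidase, had 0.82 (adjusted p = 0.0126) and CTSD, the aspartic protease cathepsin D, 1.02 (adjusted p = 0.00318), and both lost their calls without wild-type replicate 3. AL008726.1, 75.57% opposite CTSA, rose by 1.12 (SE 0.23, adjusted p = 0.00106). In the proteasome 4 of 26 members were called higher and 1 lower (median 0.40). Of 16 antioxidant genes of NRF2 3 were called higher and 1 lower (median 0.13), with 2 lower without wild-type replicate 2. PRDX1, a peroxiredoxin, rose by 0.95 and ABCC1, a glutathione-conjugate exporter, by 0.95, while TKT, transketolase, fell by 0.91 by reads.

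Mitochondrially encoded mRNAs had 3 of 13 members called lower and none higher (median -0.12), with 1 to 4 lower when 1 library was left out and 1 without wild-type replicate 2. MT-ND3, a complex I subunit, had 1514, 1423 and 1255 TPM in ATG12-/- cells and 1920.4, 2424 and 2088 TPM in wild-type cells. Every ATG12-/- library was below every wild-type one (-0.62 by reads, SE 0.14, adjusted p = 0.00255). MT-ND6, the subunit encoded on the light strand, had 915, 643 and 523 TPM in ATG12-/- cells and 859.6, 1653 and 1169 TPM in wild-type cells, which overlap, and its call (-0.82) was lost without wild-type replicate 2. Among 19 mitochondrial rRNAs and tRNAs 1 was called higher and 3 lower (median -0.19), with none higher without ATG12-/- replicate 3 or wild-type replicate 1 or 3, and 1 to 4 lower when 1 library was left out, the 1 without ATG12-/- replicate 1 or 2. Nuclear genes of the respiratory chain had 4 of 47 called higher and 2 lower (median 0.01), a share near that of all genes, and 1 or 2 higher without ATG12-/- replicate 2 or 3 or any 1 wild-type library, and 1 lower without ATG12-/- replicate 1 or 2 or wild-type replicate 1 or 3. ATP5F1B, the catalytic beta subunit of ATP synthase, had 141, 192 and 263 TPM in ATG12-/- cells and 66.0, 61.6 and 89.1 TPM in wild-type cells (1.16 by reads, SE 0.17, adjusted p = 2.9e-05). TOMM22, a receptor of the mitochondrial import pore, rose by 1.27 by reads (adjusted p = 0.00238).

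Lists of growth and defence were also counted, beside 9.3% called higher and 7.22% called lower by reads over all genes tested. Of 31 replication and cell cycle genes 2 were called higher, a share below that of all genes, and none lower (median 0.44). There were 0 higher without wild-type replicate 3, 1 without ATG12-/- replicate 3 and 6 without ATG12-/- replicate 1. Of 12 replication-dependent histone genes 3 were called higher (median 0.50), and HIST1H2BO had 4731, 7418 and 9043 TPM in ATG12-/- cells and 2898, 2561 and 3158 TPM in wild-type cells, without overlap (1.25 by reads, SE 0.16, adjusted p = 6.13e-06). Histone genes are near-identical copies, and their values are uncertain. Among 12 interferon-stimulated genes the median was 0.07. IRF7, a transcription factor of the interferon response, had 17.8, 12.8 and 16.4 TPM in ATG12-/- cells and 17.8, 34.6 and 23.8 TPM in wild-type cells, and was called lower by reads (-0.96, SE 0.27, adjusted p = 0.0135), though not without ATG12-/- replicate 2 or wild-type replicate 2. Among 9 immediate early genes SRF, the serum response factor, rose by 0.96 (adjusted p = 0.00188). JUN, an AP-1 subunit, had 6.74, 6.09 and 6.71 TPM in ATG12-/- cells and 9.11, 10.4 and 11.2 TPM in wild-type cells, and was called lower (-0.68, adjusted p = 0.00765), though not without ATG12-/- replicate 2, while 2 members were called lower without wild-type replicate 3. Of 25 genes of EV biogenesis 3 were called higher and 2 lower (median 0.33), shares near those of all genes. Without wild-type replicate 3 none was called higher, and 1 was without ATG12-/- replicate 1 or 2 or wild-type replicate 2. Only 1 was called lower without ATG12-/- replicate 2 or wild-type replicate 2 or 3. SNF8, an ESCRT-II subunit, had 10.1, 10.5 and 9.99 TPM in ATG12-/- cells and 30.2, 13.6 and 29 TPM in wild-type cells (-1.19 by reads, SE 0.25, adjusted p = 0.00145), and AC091133.1, wholly opposite SNF8, had -0.20 (adjusted p = 0.743). Of 12 p53 and DNA damage genes tested by reads limma-voom called 0, with 1 at an unadjusted p under 0.05 and 1 called lower without wild-type replicate 2, and by TPM limma called 0 of 16, with 2.

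In 233 pairs of a coding gene and a noncoding feature opposite its exons, both tested by reads, the features had 78 called higher and 3 lower (median 0.34), and the genes had 54 higher and 8 lower (median 0.30). Both partners were called higher in 33 pairs. Over all genes tested by reads 9.3% were called higher and 7.22% lower, with a median of -0.03. The features entered only with a mean of at least 50 TPM over the 6 cell libraries compared. Of 246 protein-coding genes averaging at least 100 TPM, 94 were called higher and 22 lower (median 0.33). The part of level in the counts of these pairs was not tested.

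The balance of RNA classes differed along with these genes. By reads, protein-coding genes had 1030 of 9783 called higher and 560 lower (median 0.05). LincRNA genes had 26 of 825 higher and 135 lower (median -0.42), and processed pseudogenes 11 of 255 higher and 25 lower (median -0.33). Protein-coding RNA held 21.59%, 24.03% and 24.31% of the TPM in ATG12-/- cells and 20.24%, 18.98% and 20.11% in wild-type cells, without overlap (difference 3.53 percentage points, 2-sided exact permutation p = 0.1, the smallest that 3 against 3 allow). Antisense genes held 18.89% ± 1.02 in ATG12-/- cells and 16.33% ± 0.60 in wild-type cells, and pseudogenes 7.16% ± 0.19 in ATG12-/- cells and 8.18% ± 0.23 in wild-type cells (SD, n = 3 each, exact permutation p = 0.1 each). LincRNA held 5.49% ± 1.03 in ATG12-/- cells and 7.08% ± 0.90 in wild-type cells, with overlap (exact permutation p = 0.2).

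The fold change of a coding gene also went with its level. The median by reads was -0.02 for 3974 protein-coding genes with a mean under 5 TPM, 0.05 for 3899 genes from 5 to 20 TPM, 0.17 for 1664 genes from 20 to 100 TPM and 0.33 for 246 genes above. Called higher among the last were 94 genes and called lower 22, and among those from 20 to 100 TPM 323 and 114. Levels in these bins are means over the 9 cell libraries. Of the 47 tested large-subunit members 26 averaged 20 to 100 TPM and 9 lay above 100 TPM, and of the 30 small-subunit members 17 and 6. Of 23 glycolysis members 6 averaged 20 to 100 TPM and 4 lay above, and of 21 cytoskeleton members also 6 and 4. The part of level in the medians of these lists, 0.39 to 0.68, was not tested. Olfactory receptor genes, known for their use in the nose, were chosen after their values were seen. All 379 of them together held 2657, 2605 and 2256 RPM (estimated reads scaled by the library's total) in ATG12-/- cells and 4205, 3372 and 3726 in wild-type cells. The groups did not overlap, with wild-type replicate 1 highest. The part of this difference and of library depth in the fold changes was not tested. In bulk RNA a smaller amount per cell and fewer cells with the RNA cannot be told apart.

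**Figure D5:**
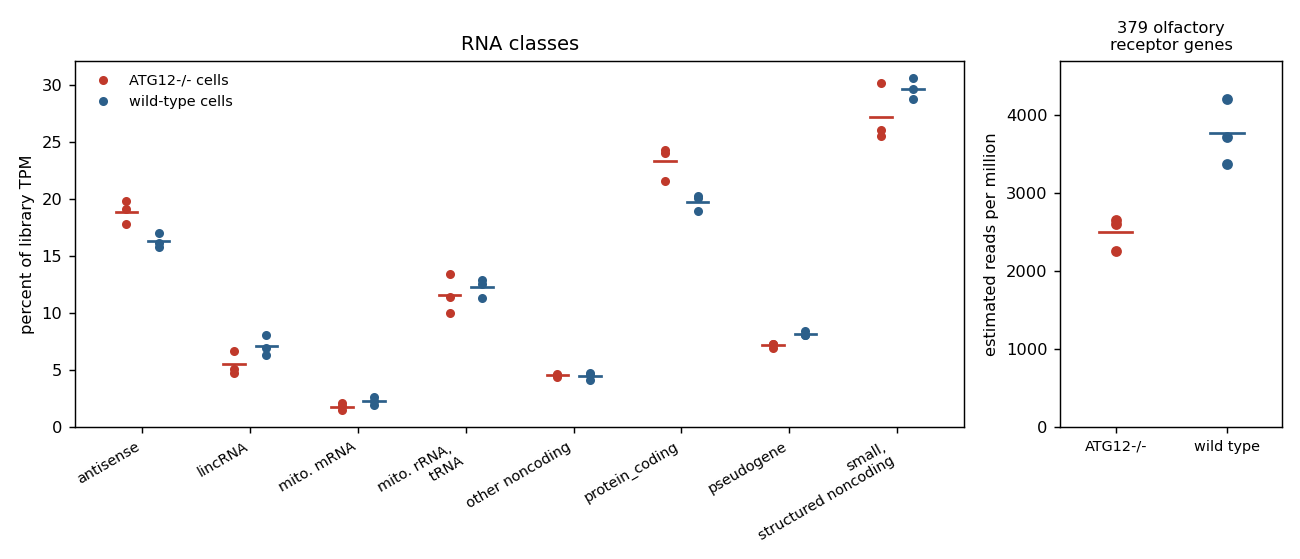
Left, percent of library TPM by RNA class, with 1 point per library, ATG12-/- cells left of wild-type cells and a bar at each mean. Right, the summed RPM in each library for 379 olfactory receptor genes, where the ATG12-/- libraries (2256 to 2657) lie below the wild-type ones (3372 to 4205).

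ATG7-/- cells lack the enzyme upstream of ATG12 and give a second knockout of the same pathway, set against the same 3 wild-type libraries. By reads 1257 of 13663 genes were called there (9.2%), 833 of them higher (6.1%) and 424 lower (3.1%), and 45 by TPM (0.2%). Because the wild-type libraries are shared, each comparison's own values are given side by side without a count of agreement. Sterol synthesis had 11 of 22 members higher in ATG12-/- cells (median 0.86) and 7 of 22 in ATG7-/- cells (median 0.51). Cytoskeleton genes had 12 of 21 higher in each, with medians of 0.68 in ATG12-/- and 0.60 in ATG7-/- cells. Translation factors had 15 of 33 (median 0.57) in ATG12-/- and 8 of 33 (median 0.33) in ATG7-/- cells, and glycolysis 9 of 23 (0.63) in ATG12-/- and 6 of 23 (0.42) in ATG7-/- cells. Large-subunit ribosomal protein genes had 11 of 47 (0.39) in ATG12-/- and 1 of 47 (0.07) in ATG7-/- cells, and lysosomal genes 7 of 42 (0.29) in ATG12-/- and 1 of 42 (0.06) in ATG7-/- cells. PFKFB2 had 245, 313 and 284 TPM in ATG7-/- cells, and SQLE had 0.93 by reads there.

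The difference between the knockouts was tested directly, ATG12-/- against ATG7-/- cells, with no wild-type library in the contrast. The same 3 ATG12-/- libraries enter it, and the genes named from it were picked by values in these libraries. Their p-values in this contrast are therefore not independent of that choice. By reads 590 of 13663 genes were called (4.32%), 276 higher in ATG12-/- cells (2.02%) and 314 lower (2.3%), and by TPM 31 of 22471 (0.138%). DHX9, with 48.2, 56.9 and 56.7 TPM in ATG7-/- cells, was higher in ATG12-/- cells by 1.05 (SE 0.14, adjusted p = 2.05e-05, by reads). HDGF, with 69.7, 97.0 and 105 TPM in ATG7-/- cells, was higher in ATG12-/- cells by 0.82 (SE 0.13, adjusted p = 0.000137). HYOU1, with 105, 133 and 111 TPM in ATG7-/- cells, was higher by 0.66 (SE 0.13, adjusted p = 0.00156). All ATG7-/- libraries of these 3 genes lay below the ATG12-/- ones. PFKFB2 differed by 0.11 (SE 0.13, adjusted p = 0.718), a difference smaller than its error.

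STAG3L5P-PVRIG2P-PILRB had 46.7, 50.4 and 66.5 TPM in ATG7-/- cells and was higher in ATG12-/- cells on both scales (1.66 by TPM, SE 0.19, adjusted p = 0.02; 1.66 by reads, adjusted p = 1.83e-06). WDR45 was higher in ATG12-/- than in ATG7-/- cells by 0.97 (adjusted p = 0.00268) and CANX by 0.59 (adjusted p = 0.0128). Among genes lower in ATG12-/- than in wild-type cells, HINT3, a hydrolase of the histidine triad family, was also lower than in ATG7-/- cells (-1.12, SE 0.17, adjusted p = 0.00013), while SLC38A6 (-0.32, adjusted p = 0.578), NEDD4 (-0.09, adjusted p = 0.786) and VPS13B (-0.19, adjusted p = 0.538) were not called between the knockouts. Of 22 sterol genes limma-voom called 0 between the knockouts, with a median difference of 0.21 and 4 at an unadjusted p under 0.05, and by TPM limma called 0 of 25, with 2.

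HINT3 and RPPH1 went opposite ways in cells and in the EVs that these cells released. HINT3 (on the plus strand of chromosome 6, at 125956781 to 125980244) had 40.1, 43.9 and 44.8 TPM in ATG12-/- cells and 148, 113 and 88.7 TPM in wild-type cells (-1.39 by reads, SE 0.17, adjusted p = 3.04e-06). In EVs it had 662, 471 and 316 TPM from ATG12-/- cells and 186, 164 and 158 TPM from wild-type cells (1.60 by reads, SE 0.26, adjusted p = 0.000239). Neither pair of groups overlaps, and the EV effect minus the cell effect was 3.19 by TPM (interaction, limma adjusted p = 0.01). RPPH1, the RNA of RNase P, which trims the 5′ ends of tRNA precursors (on the minus strand of chromosome 14, at 20343075 to 20343407), had 1663, 1818 and 3259 TPM in ATG12-/- cells and 1017, 919.7 and 598 TPM in wild-type cells (1.36 by reads, SE 0.23, adjusted p = 0.000147). In EVs it had 4026, 4868 and 4785 TPM from ATG12-/- cells and 10328, 13561 and 11619 TPM from wild-type cells (-1.31 by reads, SE 0.12, adjusted p = 1.11e-08). Its EV effect minus its cell effect was -2.39 (adjusted p = 0.0155). In the EV comparison 111 of 13953 genes were called by reads (0.796%) and 18 of 17076 by TPM (0.105%). HDGF, DHX9, HYOU1 and PFKFB2 were not called in EVs on either scale, with fold changes by reads of 0.36, -0.26, 0.26 and 0.36.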

How the data were processed

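RNA of cells and EVs, labelled large RNA, was sequenced as single-end reads. The authors deposited TPM per transcript; per the submitters' processing notes, Salmon 0.14 and DESeq2 were among the tools, without a stated use, and no source used here gives the genome build, annotation or strand setting. Of 203027 transcripts 202941 matched GENCODE 29, and TPM were summed per gene. Genes with at least 1 TPM in 3 of the 9 cell libraries were tested on log2(TPM + 1), after median-of-ratios scaling, with limma 3.58.1 in R 4.3.3, Benjamini-Hochberg adjusted over all genes. Fold changes on this scale understate changes of low genes. In a second fit, added after the data were seen, reads were estimated as TPM times effective length (fragments of 250 nt, SD 25, assumed), and genes with at least 10 reads in 3 cell libraries were tested with limma-voom. Between 67.3% and 72.5% of genes under 10 reads came out within 0.02 of a whole read. Read numbers cover counting error only.

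Members and gene lists were chosen with earlier results of these data known. Named genes are ATG12, ATG7, called genes averaging 5 TPM or more in the higher group, the 10 coding genes per direction with the smallest p among those averaging 20 TPM or more, and up to 4 per list. Opposite-strand features and other genes named to complete a count were picked after seeing their values. Both fits were tested on simulated data with an assumed spread. Some genes that these rules name are not reported here.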

Additional observations from a re-analysis of the deposited data

Results flagged for a closer look

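Some effects of the ATG12 knockout in cells differed from those of the ATG7 knockout, by limma on log2(TPM + 1) with adjusted p under 0.05. ATG12-/- minus ATG7-/- cells was 1.66 for STAG3L5P-PVRIG2P-PILRB, 6.25 for RF00019, -3.22 for RN7SKP158 and -6.57 for RF00096. These were picked by values in the same ATG12-/- cell libraries, so the p-values are not independent of that choice.

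Others differed between EVs and cells, by the interaction of genotype and source. The EV effect minus the cell effect was 3.19 for HINT3, whose cells and EVs moved in opposite directions, and -2.39 for RPPH1. It was -6.24 for RF00019, 7.77 for RNU6-774P, 7.41 for MIR215, 6.52 for SNORA49, 6.8 for RNU6-1154P, 3.88 for RN7SKP158, 6.57 for RF00096, 5.36 for RN7SKP67 and 6.78 for RNU6-445P. Apart from HINT3, RPPH1 and STAG3L5P-PVRIG2P-PILRB, each of these features had at most a few reads per cell library and was listed at 0 in a group, so that these fitted differences depend on the pseudocount and give no fold.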

How the results depend on the processing

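The TPM fit called 30 genes, 11 higher and 19 lower. Fitted on the 6 libraries alone it called 52, 18 higher and 34 lower. A replicate block left 12, 2 higher and 10 lower, although same-numbered libraries did not deviate together (correlations 0.009, 0.023 and -0.028). A pseudocount of 5 left 6 higher, and a mean of at least 5 TPM left 11 lower. Without 1 replicate the totals were 13 to 30, with 2 to 8 higher and 7 to 26 lower. By reads 2256 genes were called, 1270 higher and 986 lower, and without 1 replicate 1299 to 1881, with 702 to 1187 higher and 469 to 941 lower (641 without ATG12-/- replicate 1, 648 without ATG12-/- replicate 3, 597 without wild-type replicate 3, and in total 1347 without ATG12-/- replicate 2). Between the knockouts 31 genes were called by TPM, 590 by reads and 9 with the replicate block. In EVs 18 were called, 5 with no filter, 7 with a pseudocount of 5, 111 by reads, 3 with the replicate block and 5 to 18 without 1 replicate. The causes were not tested.

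The difference in mitochondrial rRNA and tRNA share, -0.64 percentage points, turned to 0.11 without transcripts under 200 nt. By reads the fold change turned to -0.06 for RB1CC1 and 0.73 for PDIA3. Over 135 genes and 18 alternatives, 2164 of 2360 results kept direction and side of the threshold, 72 lost the call, 122 gained it and 2 changed sign. Depth, 483075 to 1269784 estimated reads per library, limits genes of few reads.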

Other observations

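The share of genes called varied over chromosomes, and whether it varied more than by chance was not tested. By reads 161 of 1007 protein-coding genes tested on chromosome 1 were called higher in ATG12-/- cells (16%) and 49 of 306 on chromosome X (16%), against 1030 of all 9783 (10.5%), and the lowest share was 7 of 146 on chromosome 18 (4.79%). Called lower were 16 of 127 on chromosome 13 (12.6%), the highest such share, against 560 of all 9783 (5.72%). HDGF, DHX9 and PFKFB2 lie on chromosome 1. Copy number of the clone was not measured, and its part in these shares was not tested.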
